A study of Mus musculus with 14 samples.

Results

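Ccn1, Ccn2 and Ccn4, which encode secreted proteins of the extracellular matrix, were followed together with Ankrd1, Amotl2, Lats2, Ajuba, Axl and Tead1, genes of the Hippo and YAP pathway, in mouse B16-F10 melanoma cells. The probesets were picked by symbol, so that each probeset annotated with 1 of these symbols and no other was taken. This gave 18 of the 22626 probesets tested, and 9 of the 12393 genes that carry such a probeset. A further 1 probeset, annotated with both Xpo4 and Lats2, was not used. The genes themselves were chosen with earlier results of the same arrays known. Their differences are therefore given as a description, many of them with a standard error (SE) or a 95% interval, but with no p-value. The text states which of them passed the test over all probesets.

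B16-F10 is an established melanoma line, labelled as of strain C57BL/6J. RNA was hybridized to 14 Affymetrix mouse arrays, on which a probeset is a group of short probes that reports the RNA of a gene. Each value is a log2 signal, so that a difference of 1 means 2-fold. The Lipofectamine group had 3 arrays, from cells that had received this cationic liposome reagent with no plasmid for 3 h, in the medium Opti-MEM, and then 30 min in RPMI with serum. The heat shock group had 3 arrays, from cells held at 42.5°C for 1 h and left to recover for 30 min. The benzyl alcohol group had 3 arrays, from cells exposed to 40 mM of this membrane fluidizer for 1 h. The recovery of the benzyl alcohol cells is 3 h in one description and 30 min in another, which could not be settled. The control group had 5 arrays, from untreated cells. As no cells went through the change to Opti-MEM alone, the liposomes and the change of medium cannot be told apart. All arrays are labelled as biological replicates, and their number limits the precision.

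YAP and its relative TAZ are coactivators that reach DNA through the TEAD factors, of which TEAD1 is one. In the Hippo pathway the MST kinases activate the LATS kinases, which, with MOB1 as a partner, phosphorylate YAP and hold it in the cytoplasm. Ccn1, Ccn2, Ankrd1, Amotl2, Lats2, Ajuba and Axl are target genes of YAP, largely from work in human and mouse cells, and LATS2 and AMOTL2 act back on YAP as inhibitors. CCN proteins bind integrins at the cell surface. CCN1 and CCN2 are also known as fast responders to serum and stress, and CCN4 was named for its induction by WNT1.

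The promoters are shown first because several of these genes share a short sequence that TEAD factors bind. A table of RefSeq promoters on GRCm38.p6, each with 250 bases before the start site and 50 after it, held 7 promoters of 6 of the 9 genes. Those of Ccn2, Ccn4 and Tead1 were not in it. The core of the TEAD site, GGAATG or CATTCC when read on the other strand, occurred in 14.7% of all 32851 promoters and in a promoter of each of the 6 genes. The windows below are 30 bases long, run 5′ to 3′ on the strand of the gene, and have these letters in capitals. They are shown so that the setting of each match can be read.
Ankrd1, chr19:36120037-36120066 on the minus strand: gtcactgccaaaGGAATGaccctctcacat
Ankrd1, chr19:36119950-36119979 on the minus strand: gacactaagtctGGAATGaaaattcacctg
Amotl2, chr9:102717727-102717756 on the plus strand: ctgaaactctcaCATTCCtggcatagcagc
Lats2, chr14:57746102-57746131 on the minus strand: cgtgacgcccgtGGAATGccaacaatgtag
Ajuba, chr14:54577830-54577859 on the minus strand: cgttgatggataCATTCCacagtgcccctc
Ajuba, chr14:54577808-54577837 on the minus strand: tgcccctccgcgCATTCCaactgtaaacaa
Axl, chr7:25788949-25788978 on the minus strand: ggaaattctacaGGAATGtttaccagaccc

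Counted from the start site, where -1 is the base before it, the first base of the match lay at -210 and -123 in Ankrd1, at -65 in Amotl2, at 5 in Lats2, at -186 and -164 in Ajuba and at -233 in Axl. The promoter of Ccn1 is given over all 250 bases before its start site because Ccn1 was the gene of the group that rose with both heat shock and Lipofectamine. Its capitals mark CATTCC, at -103, and TTCTAGAA, at -82, a pair of inverted units of the heat shock element to which heat shock factors bind.
Ccn1, chr3:145649986-145650235 on the minus strand: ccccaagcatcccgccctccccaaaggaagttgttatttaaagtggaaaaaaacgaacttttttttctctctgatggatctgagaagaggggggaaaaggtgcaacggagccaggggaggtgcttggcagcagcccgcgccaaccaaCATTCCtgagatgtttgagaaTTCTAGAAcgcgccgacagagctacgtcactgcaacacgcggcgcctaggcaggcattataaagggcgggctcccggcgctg

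The inverted pair was searched as GAANNTTC or TTCNNGAA, each of which reads the same on both strands, and 15.1% of all promoters held it. It was found in promoters of 3 of the 6 genes, namely Ccn1, Ankrd1, where it overlaps the second TEAD match by its first base, and Lats2, in the other of its promoters. The CArG box of serum response factor was in 1.63% of all promoters and in none of the 7 promoters of these genes. These are matches of letters within short windows and are no evidence of binding.

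After normalization the medians of the 14 arrays lay between 7.03 and 7.12. Control arrays 1 and 3 stood apart from control arrays 2, 4 and 5, with 440 probesets different by 2-fold or more between their means. Lipofectamine and heat shock arrays tended to correlate more closely with control arrays 1 and 3 (r of 0.981 to 0.992) than with the others (0.975 to 0.983). These ranges overlap, and the probesets behind them are not independent. The benzyl alcohol arrays showed the opposite, with r of 0.977 to 0.982 and 0.985 to 0.992. The labels do not separate these control arrays, so differences from the control group are also given without them and without the other 3 where this changes a call. Of 7 melanocyte markers 6 were measured, and Tyr, Tyrp1, Dct, Pmel, Mitf and Sox10 were brighter than 94% or more of all probesets, which fits the label of the cells.

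Against the control arrays, Lipofectamine changed 2 of the 9 genes by the test over all probesets, Ccn1 upward and Ccn4 downward, at both probesets of each. These 4 probesets were 22.2% of the 18, where 4.88% of all probesets passed, and the same 4 had groups that did not overlap, which was true of 10.4% of all probesets. Heat shock moved Ccn1 and Ccn4 in the same directions and the dimmer probeset of Axl upward, which made 5 of 18 probesets, or 27.8%, beside 5.96% of all. Its groups did not overlap with the controls at 10 member probesets, 5 higher and 5 lower, beside 17.8% of all probesets. Benzyl alcohol raised Ccn2 alone among the 9 genes, 1 of 18 probesets or 5.56%, beside 1.39% of all, and 4 member probesets did not overlap with the controls, all of them higher, beside 7.55% of all. As the members were chosen with these contrasts known, nothing is read from these shares. The median difference of the 18 probesets was -0.02 with Lipofectamine, 0.08 with heat shock and 0.22 with benzyl alcohol, against -0.02, 0.03 and 0.02 over all probesets.

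**Figure D1:**
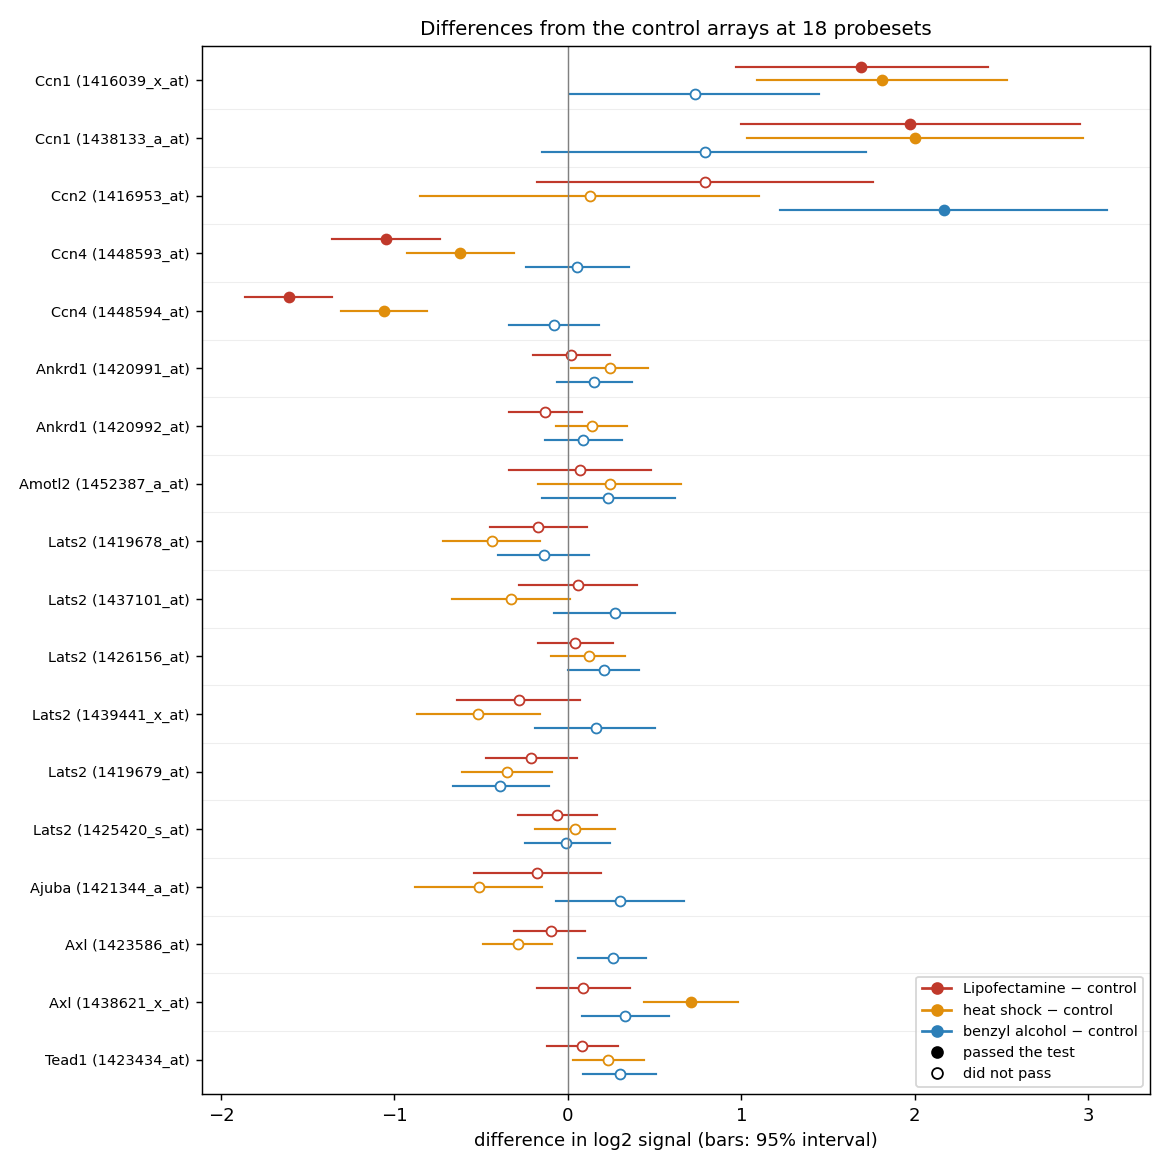
Difference in log2 signal from the control arrays (x axis) at each of the 18 probesets (y axis), for Lipofectamine, heat shock and benzyl alcohol. Points are estimates, bars 95% intervals, and filled points, which passed the test over all 22626 probesets, are found at Ccn1 and Ccn4 for Lipofectamine and heat shock, at Ccn2 for benzyl alcohol and at the dimmer Axl probeset for heat shock.

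Ccn1 encodes a matrix protein of the CCN family that binds integrins, and it was the most strongly raised of the 9 genes with Lipofectamine and with heat shock. At its brighter probeset, 1416039_x_at, whose suffix marks probes that can also match other transcripts, the log2 signals were 10.66, 11.20 and 10.69 with Lipofectamine, 10.72, 10.89 and 11.29 after heat shock, 9.73, 9.48 and 10.44 with benzyl alcohol, and 10.03, 8.63, 9.97, 8.49 and 8.67 in control arrays 1 to 5. All Lipofectamine and heat shock arrays were above every control array, while benzyl alcohol arrays 1 and 2 lay within the range of the controls and array 3 above it, and control arrays 1 and 3 were the highest of their group. The Lipofectamine mean of 10.85 ± 0.30 (SD, n = 3), against 9.16 ± 0.77 in controls (n = 5), gave a difference of 1.69 with SE 0.336 (95% interval 0.97 to 2.42), or 3.23-fold. After heat shock the mean was 10.97 ± 0.29 and the difference 1.81 with SE 0.336 (1.09 to 2.53), or 3.51-fold. Both passed. Benzyl alcohol, with a mean of 9.89 ± 0.50, differed from the controls by 0.73 (0.01 to 1.45) and did not pass.

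The other Ccn1 probeset, 1438133_a_at, gave the same order of groups. Its signals were 9.24, 9.34 and 9.30 with Lipofectamine, 9.25, 8.83 and 9.87 after heat shock, 8.15, 7.61 and 8.55 with benzyl alcohol, and 8.37, 6.08, 8.44, 6.56 and 7.15 in the control arrays. The spread of 1.06 (SD) among the controls was far larger than the 0.05 among the Lipofectamine arrays. Lipofectamine was higher by 1.97 with SE 0.453 (1.00 to 2.95) and heat shock by 2.0 with SE 0.453 (1.03 to 2.97), and both passed, while benzyl alcohol differed by 0.79 (-0.15 to 1.72) and did not. Heat shock and Lipofectamine, the neighbours at the top of the order, differed by -0.12 (-0.93 to 0.69) and -0.03 (-1.12 to 1.06) at the 2 probesets, taken as Lipofectamine minus heat shock, which was within their spread.

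The size of the Ccn1 difference depended on the control arrays used. Control arrays 1 and 3 lay above control arrays 2, 4 and 5 by 1.40 at 1416039_x_at and by 1.81 at 1438133_a_at. Without control arrays 1 and 3 the Lipofectamine difference was 2.25 and 2.70 at the 2 probesets, and with them as the only controls it was 0.85 and 0.89. For heat shock these values were 2.37 and 2.72, against 0.97 and 0.92, and each of these 8 differences passed. Benzyl alcohol passed at both probesets without control arrays 1 and 3, with 1.29 and 1.51, and gave -0.11 and -0.30 with them alone, which did not pass. With single arrays left out, the call at 1416039_x_at was lost for Lipofectamine without its replicate 1 (1.79) or 2 (1.52) and for heat shock without its replicate 2 (1.85) or 3 (1.65). At 1438133_a_at it was lost for both treatments without control replicate 4 or 5 and without any 1 array of the treatment, at differences of 1.79 to 2.0 with Lipofectamine and 1.73 to 2.24 with heat shock. All 4 of these Ccn1 calls were also lost without limma's moderation of the variance, and both at 1438133_a_at with only the 2 groups in the fit.

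**Figure D2:**
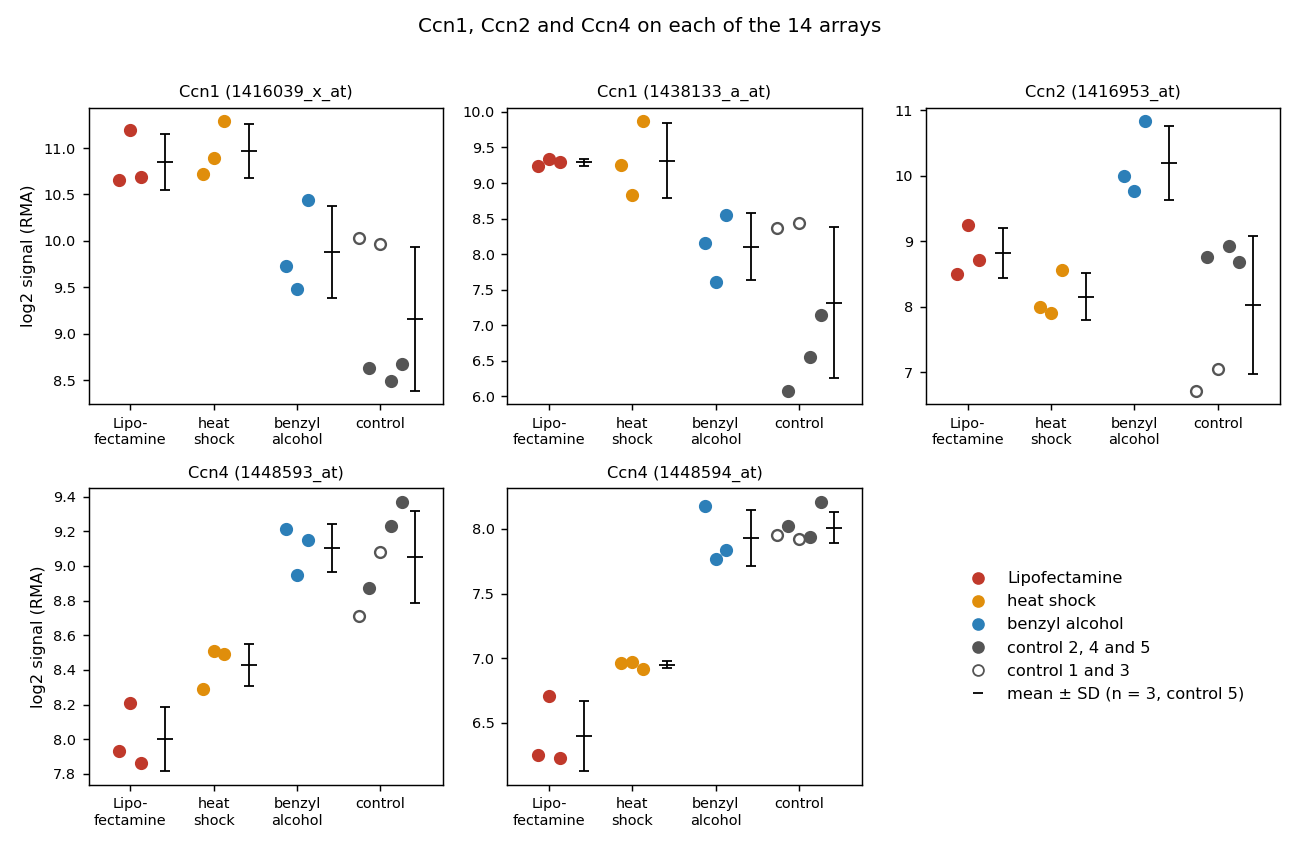
Log2 signal (y axis) of the 5 probesets of Ccn1, Ccn2 and Ccn4 on each of the 14 arrays (points), by group (x axis), with the mean and SD beside each group and control arrays 1 and 3 drawn open. Open and filled control points separate at Ccn1 and Ccn2 and mingle at Ccn4, where the Lipofectamine and heat shock arrays lie below all controls.

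Ccn2, which encodes connective tissue growth factor, a close relative of CCN1 and a classic reporter of YAP activity, showed another pattern and was raised with benzyl alcohol. At 1416953_at the signals were 8.50, 9.24 and 8.72 with Lipofectamine, 8.00, 7.90 and 8.56 after heat shock, 10.00, 9.76 and 10.83 with benzyl alcohol, and 6.72, 8.76, 7.05, 8.93 and 8.69 in control arrays 1 to 5. All benzyl alcohol arrays were above every other array, and control arrays 1 and 3 were the lowest of all 14. The mean of 10.20 ± 0.56 with benzyl alcohol (n = 3), against 8.03 ± 1.06 in controls (n = 5), gave a difference of 2.17 with SE 0.445 (1.22 to 3.11), or 4.5-fold, which passed. Lipofectamine differed from the controls by 0.79 (-0.18 to 1.76) and heat shock by 0.13 (-0.85 to 1.10), and neither passed. In the order of the levels, benzyl alcohol stood above Lipofectamine (8.82 ± 0.38), heat shock (8.16 ± 0.36) and control, and these 3 overlapped with each other.

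At Ccn2 the differences again varied with the control arrays used, in the direction opposite to Ccn1. Control arrays 1 and 3 lay below control arrays 2, 4 and 5, with a difference of -1.91. The benzyl alcohol difference was 1.40 without control arrays 1 and 3 and 3.32 with them alone, and passed in both cases. It did not pass without benzyl alcohol replicate 1 (2.27) or 3 (1.85), nor with only these 2 groups in the fit or without limma's moderation of the variance, which borrows the spread of other probesets. For Lipofectamine the same choice gave 0.03, which did not pass, and 1.94, which did. Heat shock was below the controls without control arrays 1 and 3 (-0.64) and above them with those 2 as the only controls (1.27), and each of these passed. A direction for Ccn2 after heat shock therefore cannot be given from these arrays.

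Ccn4, whose product was found as a WNT1-inducible signalling protein, fell with Lipofectamine and, less so, after heat shock. The signals at 1448594_at were 6.25, 6.71 and 6.23 with Lipofectamine, 6.96, 6.97 and 6.92 after heat shock, 8.18, 7.77 and 7.84 with benzyl alcohol, and 7.95, 8.02, 7.92, 7.94 and 8.21 in the control arrays. The Lipofectamine arrays were the lowest, the heat shock arrays came next with no overlap on either side, and benzyl alcohol and control arrays intermingled. Lipofectamine averaged 6.40 ± 0.27, heat shock 6.95 ± 0.02, benzyl alcohol 7.93 ± 0.22 (n = 3 each) and control 8.01 ± 0.12 (n = 5). The Lipofectamine difference was -1.61 with SE 0.117 (-1.86 to -1.36), 3.05-fold lower, and the heat shock difference -1.06 with SE 0.117 (-1.31 to -0.81), 2.08-fold lower. Both passed, also with each array left out in turn, and also without control arrays 1 and 3 (-1.66 and -1.11) or with them alone (-1.53 and -0.98).

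The second probeset of Ccn4, 1448593_at, gave 7.93, 8.21 and 7.86 with Lipofectamine, 8.29, 8.51 and 8.49 after heat shock, 9.21, 8.95 and 9.15 with benzyl alcohol, and 8.71, 8.87, 9.08, 9.23 and 9.37 in the controls. As at the first probeset, the Lipofectamine arrays were the lowest and the heat shock arrays came next, below all benzyl alcohol and control arrays. Lipofectamine was lower by a difference of -1.05 with SE 0.144 (-1.36 to -0.74) and heat shock by -0.62 with SE 0.144 (-0.93 to -0.31), and both passed. The heat shock call was lost with control arrays 1 and 3 alone (-0.46) and without control replicate 4 or 5 or any 1 heat shock array (-0.66 to -0.54), whereas the Lipofectamine call held in all 24 alternatives. Benzyl alcohol differed from the controls by 0.05 (-0.24 to 0.35) here and by -0.08 (-0.34 to 0.18) at 1448594_at. Control arrays 1 and 3 differed from the others by -0.26 and -0.13 at the 2 probesets of Ccn4, with overlap.

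**Figure D3:**
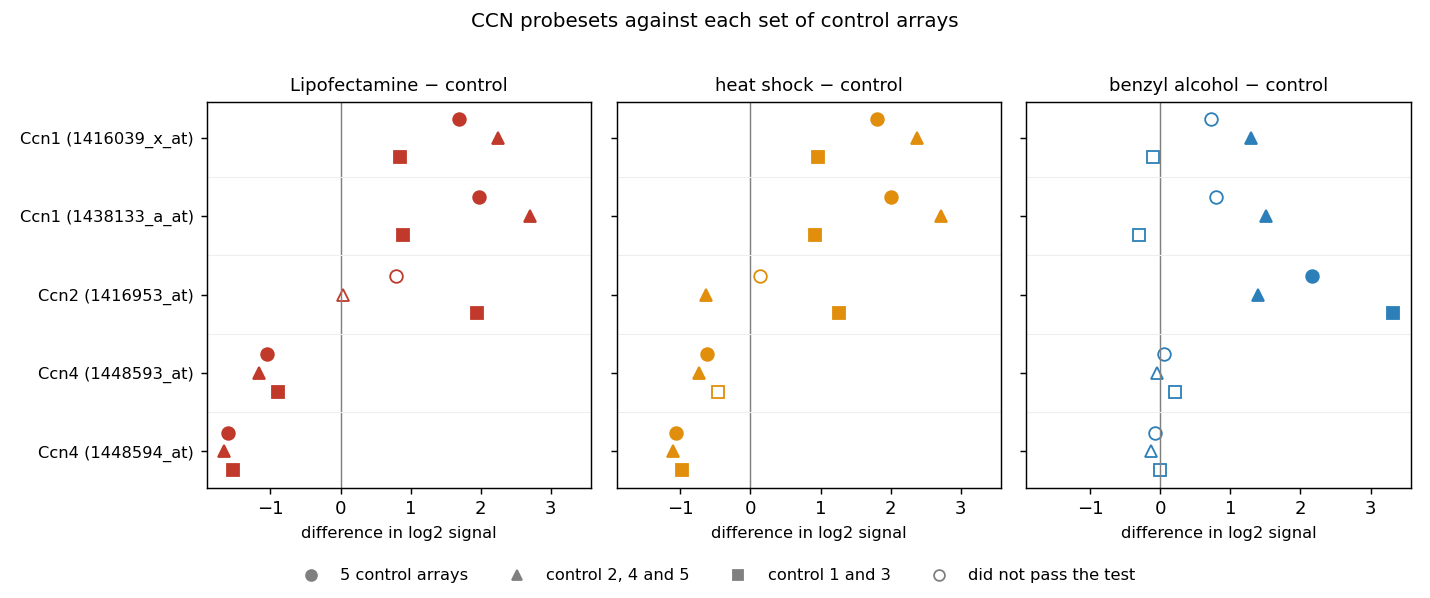
Difference in log2 signal from the controls (x axis) at the 5 CCN probesets (y axis) for each treatment, computed with all 5 control arrays (circles), with control arrays 2, 4 and 5 (triangles) or with control arrays 1 and 3 (squares), filled where the test over all probesets was passed. The symbols spread widely at Ccn1 and Ccn2, on both sides of 0 for Ccn2 after heat shock, and lie closer together at Ccn4.

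Amotl2 and Lats2 are target genes whose products restrain YAP. Amotl2, an angiomotin relative that binds YAP, had signals at 1452387_a_at of 9.15, 9.13 and 9.05 with Lipofectamine, 9.24, 9.26 and 9.35 after heat shock, 9.21, 9.43 and 9.18 with benzyl alcohol, and 8.66, 9.42, 8.49, 9.39 and 9.26 in the controls. The signal of control arrays 1 and 3 was below that of all 9 treated arrays. The differences from control were 0.07 (-0.34 to 0.48) with Lipofectamine, 0.24 (-0.17 to 0.65) with heat shock and 0.23 (-0.15 to 0.62) with benzyl alcohol, and did not pass. Control arrays 1 and 3 differed from the other controls by -0.78, and against them alone the differences were 0.54, 0.71 and 0.70 in that order and passed, while against the other 3 they were -0.24, -0.07 and -0.08 and did not.

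Lats2, the kinase that phosphorylates YAP, was read by 6 probesets, the brightest of which, 1419678_at, outshone 62.4% of all probesets. Its signals there were 7.80, 7.79 and 7.58 with Lipofectamine, 7.63, 7.48 and 7.25 after heat shock, 7.72, 7.80 and 7.74 with benzyl alcohol, and 8.14, 7.84, 7.55, 7.96 and 7.98 in the controls. The heat shock arrays were low, with control array 3 and Lipofectamine array 3 within their range. The heat shock difference of -0.44 (-0.72 to -0.16) did not pass with all arrays but did without control replicate 3 (-0.53), and the Lipofectamine and benzyl alcohol differences were -0.17 and -0.14. At the other 5 Lats2 probesets the heat shock difference was -0.33 at 1437101_at, 0.12 at 1426156_at, -0.52 at 1439441_x_at, -0.35 at 1419679_at and 0.04 at 1425420_s_at. The Lipofectamine difference ran from -0.28 to 0.06 and the benzyl alcohol difference from -0.39 to 0.27 over these 5, and none of the differences passed. At 1439441_x_at the heat shock difference of -0.52 did pass without Lipofectamine replicate 2, a group that shares the estimate of the spread. Without control arrays 1 and 3, 4 of the 6 Lats2 probesets passed after heat shock, each lower, at -0.48 (1419678_at), -0.47 (1437101_at), -0.57 (1439441_x_at) and -0.44 (1419679_at).

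Ajuba, a LIM domain protein that binds LATS kinases, was measured at 1421344_a_at. The signals were 9.21, 9.46 and 9.14 with Lipofectamine, 8.57, 9.17 and 9.05 after heat shock, 9.97, 9.83 and 9.42 with benzyl alcohol, and 9.02, 9.77, 9.36, 9.64 and 9.43 in the controls. Each treated group overlapped with the controls, and the heat shock and benzyl alcohol arrays did not overlap with each other. Against control the differences were -0.18 (-0.54 to 0.19) with Lipofectamine, -0.51 (-0.88 to -0.15) with heat shock and 0.30 (-0.07 to 0.67) with benzyl alcohol, and did not pass. The heat shock difference passed without control replicate 1 (-0.62) and without control arrays 1 and 3 (-0.68).

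The probesets of Axl, a receptor tyrosine kinase for GAS6, disagreed. At 1423586_at, near the middle of all probesets in brightness, signals were 7.0, 7.23 and 6.94 with Lipofectamine, 6.94, 6.82 and 6.85 after heat shock, 7.32, 7.44 and 7.50 with benzyl alcohol, and 7.16, 7.11, 7.09, 7.14 and 7.30 in the controls. Heat shock arrays were all below the controls and benzyl alcohol arrays all above them, by differences of -0.29 (-0.49 to -0.09) and 0.26 (0.06 to 0.45) that did not pass. At 1438621_x_at, brighter than only 8.45% of probesets and of the kind whose probes can match other transcripts, signals were 4.24, 3.98 and 4.44 with Lipofectamine, 4.59, 4.84 and 5.08 after heat shock, 4.39, 4.54 and 4.44 with benzyl alcohol, and 4.04, 4.19, 4.07, 4.24 and 4.09 in the controls. Here heat shock was higher than control by 0.71 with SE 0.125 (0.44 to 0.98), which passed except without heat shock replicate 3 (0.59). No direction for the Axl RNA after heat shock follows from probesets that move apart.

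Tead1, a DNA-binding partner of YAP, gave at 1423434_at 6.36, 6.38 and 6.60 with Lipofectamine, 6.58, 6.60 and 6.61 after heat shock, 6.48, 6.73 and 6.78 with benzyl alcohol, and 6.54, 6.35, 6.41, 6.29 and 6.24 in the controls. The heat shock arrays lay just above the highest control. The differences of 0.08 with Lipofectamine, 0.23 (0.03 to 0.44) with heat shock and 0.30 (0.09 to 0.51) with benzyl alcohol did not pass, and the heat shock difference passed without control arrays 1 and 3 (0.31). Ankrd1, which encodes a cardiac ankyrin repeat protein, was dim at both probesets, which outshone 14.9% and 8.26% of all. At 1420991_at it had 5.08, 4.79 and 5.09 with Lipofectamine, 5.18, 5.22 and 5.22 after heat shock, 5.07, 5.04 and 5.25 with benzyl alcohol, and 4.78, 5.15, 5.01, 4.96 and 4.93 in the controls. Its heat shock arrays lay just above the highest control, with a difference of 0.24 (0.02 to 0.46). At the other, 1420992_at, the differences from control were -0.13 with Lipofectamine, 0.14 with heat shock and 0.09 with benzyl alcohol, and no Ankrd1 difference passed. Signals this low may lie near background, since detection calls were not used.

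**Figure D4:**
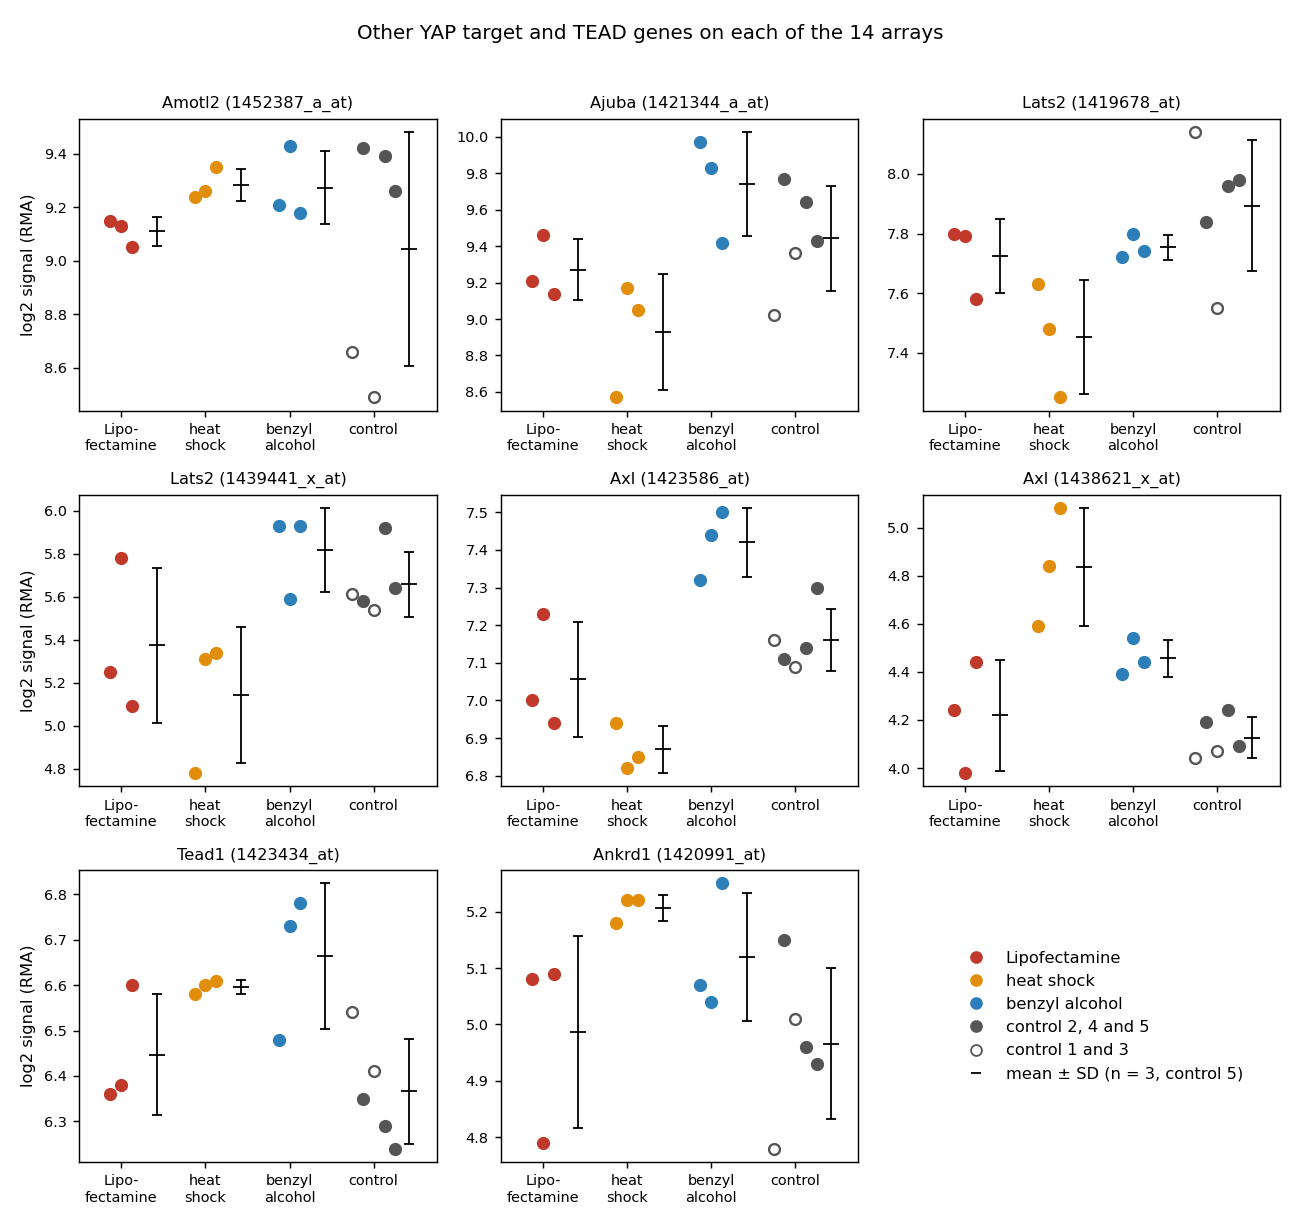
Log2 signal (y axis) of 8 probesets of Amotl2, Ajuba, Lats2, Axl, Tead1 and Ankrd1 on each of the 14 arrays (points), by group (x axis), with the mean and SD beside each group and control arrays 1 and 3 drawn open. Only 1438621_x_at of Axl, after heat shock, passed against the controls, and at Amotl2 the open control points lie below all other arrays.

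The treatments were also compared with each other, where the control arrays enter only through the shared estimate of the spread. Lipofectamine and heat shock arrays tended to resemble control arrays 1 and 3, however, and benzyl alcohol arrays the others. Control arrays 1 and 3 differed from the others by -1.91 at Ccn2, 1.40 and 1.81 at Ccn1, -0.42 at Ajuba and -0.26 and -0.13 at Ccn4. Whether the same split has a part in the differences between treatments was not tested. Treatment lasted 3 h with Lipofectamine and 1 h with heat shock and benzyl alcohol, and the recovery after benzyl alcohol is not settled. The kind of treatment and its timing therefore cannot be told apart in these comparisons. Between Lipofectamine and heat shock 2 of 18 probesets passed, or 11.1%, beside 5.72% of all. Ccn4 was lower with Lipofectamine at 1448594_at by a difference of -0.55 with SE 0.131 (-0.83 to -0.27), and its other probeset gave -0.43 (-0.78 to -0.08), which did not pass. The Ccn4 call was lost without any 1 heat shock array or without Lipofectamine replicate 1 or 3 (-0.57 to -0.47). Axl at its dim probeset was lower with Lipofectamine by -0.61 (-0.92 to -0.31), a call lost without heat shock replicate 2 or 3 or Lipofectamine replicate 1 or 2 (-0.62 to -0.49). The Ccn2 difference was 0.67 with the wide interval of -0.42 to 1.75.

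Between benzyl alcohol and heat shock 6 of 18 probesets, from 5 genes, passed, each of them higher with benzyl alcohol, or 33.3% beside 7.22% of all. Ccn2 was higher by 2.04 with SE 0.498 (0.99 to 3.10), or 4.12-fold, Ccn4 by 0.67 (0.34 to 1.00) and 0.98 (0.68 to 1.27) at its 2 probesets, Ajuba by 0.81 with SE 0.196 (0.39 to 1.23), Axl at its brighter probeset by 0.55 (0.33 to 0.76) and Lats2 at 1439441_x_at by 0.67 (0.29 to 1.06). The benzyl alcohol and heat shock arrays did not overlap at 11 of the 18 probesets, these 6 among them, 8 higher and 3 lower with benzyl alcohol. The share over all probesets was not computed here, so nothing is read from this count. The other Axl probeset, 1438621_x_at, went the other way, with -0.38 (-0.66 to -0.10) and no overlap, and did not pass. The Lats2 probeset 1439441_x_at outshone only 20.6% of all probesets and is of the kind whose probes can match other transcripts. The brightest Lats2 probeset, 1419678_at, gave 0.30 (0.01 to 0.59) and did not pass. Of the other Lats2 probesets, 1426156_at, 1419679_at and 1425420_s_at differed by 0.09, -0.04 and -0.04, with overlap. Ccn4 at 1448594_at and Axl kept the call with each array left out. The calls of Ccn2 (1.73 to 2.25), Ccn4 at 1448593_at (0.60 to 0.71), Ajuba (0.63 to 0.93) and Lats2 (0.49 to 0.77) were lost without any 1 heat shock array and without benzyl alcohol replicate 1, that of Ajuba also without benzyl alcohol replicate 2 and the other 3 also without benzyl alcohol replicate 3. The Lats2 call was further lost without Lipofectamine replicate 1. Lats2 at 1437101_at, higher by 0.60 (0.21 to 0.99), passed only when control replicate 3 or 5 or benzyl alcohol replicate 2 was left out, among single arrays. At Ccn1 benzyl alcohol was lower by differences of -1.08 (-1.89 to -0.28) and -1.21 (-2.26 to -0.17), with no overlap, which did not pass.

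Between benzyl alcohol and Lipofectamine 3 of 18 probesets passed, or 16.7%, each higher with benzyl alcohol, beside 11.9% of all. These were Ccn4, by 1.10 with SE 0.156 (0.77 to 1.44) and 1.53 with SE 0.138 (1.24 to 1.82), both kept with each array left out, and Axl at 1423586_at, by 0.36 (0.15 to 0.58), lost without Lipofectamine replicate 1 or 3 or benzyl alcohol replicate 2 or 3 (0.30 to 0.35). Ccn2 was higher by 1.38 (0.32 to 2.43) and Ccn1 lower by differences of -0.96 (-1.77 to -0.16) and -1.19 (-2.23 to -0.14), with groups that did not overlap, and these did not pass. The Ccn2 difference did pass when control replicate 1 was left out of the estimate of the spread, and Lats2 at 1439441_x_at, 0.44 with all arrays, passed without Lipofectamine replicate 2 (0.64). Because the 3 treatments are set against the same controls and against each other, these comparisons share arrays and are not independent.

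Among the upstream genes of the pathway, 16 of 22 listed Hippo kinases and scaffolds were measured, each read at its brightest probeset. This and the other gene lists were also chosen with earlier results of the same arrays known. Their adjusted p-values are therefore a description of these arrays, and nothing is read from the shares of list genes that passed. After heat shock 4 were lower than in controls and 1 was higher by limma with Benjamini-Hochberg adjustment, and the median over the 16 was -0.36, against 0.03 over all probesets. Of all probesets 5.96% passed after heat shock, 1112 of them lower and 237 higher. Mob1a, which activates LATS kinases, had 9.31, 9.50 and 9.44 after heat shock and 10.27, 10.25, 9.86, 10.27 and 10.41 in the controls. No heat shock array reached the lowest control, and the difference was -0.79 with SE 0.117 (limma adjusted p = 0.00283), which passed in all 24 alternatives. Its relative Mob1b differed by -0.59 (limma adjusted p = 0.0252), the scaffold Frmd6 by -0.62 (limma adjusted p = 0.0418) and the kinase Taok3 by 0.45 (limma adjusted p = 0.0417). Each of these 3 calls was lost without control replicate 4 or 5 or any 1 heat shock array, that of Taok3 (0.37 to 0.50) also without control replicate 2 or Lipofectamine replicate 1, and that of Frmd6 (-0.74 to -0.53) also without control replicate 2 or any 1 Lipofectamine array, while Mob1b stayed between -0.64 and -0.57. With control arrays 1 and 3 as the only controls the 3 differences were -0.60, -0.27 and 0.26 and did not pass, and control arrays 1 and 3 differed from the others by -0.59 at Frmd6 and by 0.32 at Taok3. The fifth gene, the kinase Taok1, differed by -0.50 (limma adjusted p = 0.0457), lost without any 1 of 7 arrays (-0.53 to -0.43) and with control arrays 1 and 3 alone (-0.44).

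With Lipofectamine 2 of the 16 were lower and none was higher, where 4.88% of all probesets passed, and both were WW domain scaffolds of the pathway. Wwc1 had 7.92, 8.05 and 7.98 with Lipofectamine and 8.25, 8.41, 8.34, 8.60 and 8.33 in controls, a difference of -0.40 (limma adjusted p = 0.037). Wwc2 differed by -0.49 (limma adjusted p = 0.0273). All Lipofectamine arrays were below all controls at Wwc1 and at Wwc2. These calls did not hold with control arrays 1 and 3 as the only controls (-0.31 and -0.37), nor without control replicate 2, 4 or 5 or Lipofectamine replicate 1 or 3, and that of Wwc1 also not without Lipofectamine replicate 2 or heat shock replicate 2 or 3, at -0.43 to -0.34 for Wwc1 and -0.48 to -0.44 for Wwc2. Benzyl alcohol changed 0 of the 16 against control by limma, beside 1.39% of all probesets, with 2 at an unadjusted p under 0.05.

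**Figure D5:**
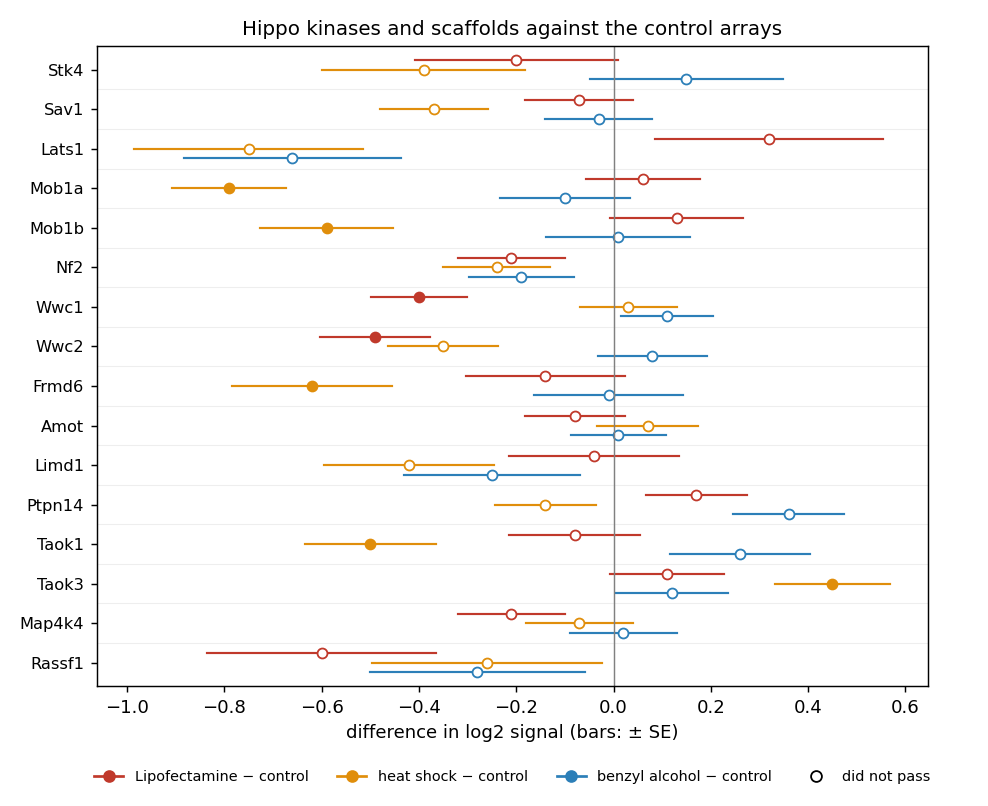
Difference in log2 signal from the control arrays (x axis) of the 16 measured Hippo kinases and scaffolds (y axis) for Lipofectamine, heat shock and benzyl alcohol, with bars of ± SE and filled points where the adjusted p was under 0.05. Heat shock points lie mostly to the left of 0, with Mob1a at -0.79 the farthest, and the only filled points with Lipofectamine are Wwc1 and Wwc2.

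Direct comparison of the treatments put Mob1a and Mob1b higher with Lipofectamine than after heat shock, by 0.86 (limma adjusted p = 0.00279) and 0.72 (limma adjusted p = 0.0148). Lats1, the other LATS kinase, had 6.16, 5.81 and 5.77 with Lipofectamine and 5.00, 4.94 and 4.57 after heat shock, a difference of 1.07 (limma adjusted p = 0.029). Wwc1 was lower by -0.43 (limma adjusted p = 0.0384). The call of Mob1a held with each array left out, those of Mob1b (0.56 to 0.70) and Lats1 (0.94 to 1.16) were lost without heat shock replicate 2 or 3 or Lipofectamine replicate 1 or 2, that of Lats1 also without heat shock replicate 1, and that of Wwc1 (-0.48 to -0.36) without any 1 of these 6 arrays. Between benzyl alcohol and heat shock 6 of the 16 were higher and none was lower, where 7.22% of all probesets passed, 1230 higher and 403 lower. Among these 6, Mob1a was higher by 0.70 (limma adjusted p = 0.0156) and Taok1, a kinase upstream of MST, by 0.76 (limma adjusted p = 0.0144). Both calls were lost without benzyl alcohol replicate 1 or heat shock replicate 2 or 3, and that of Mob1a also without heat shock replicate 1, at 0.55 to 0.74 for Mob1a and 0.61 to 0.79 for Taok1. Between benzyl alcohol and Lipofectamine Wwc1 and Wwc2 were higher by 0.51 (limma adjusted p = 0.00679) and 0.57 (limma adjusted p = 0.0091), and both held with each array left out. Lats1 was lower by -0.98, a call lost without Lipofectamine replicate 1 or benzyl alcohol replicate 2 or 3 (-0.93 to -0.86).

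The coactivators themselves did not pass. Of 8 listed YAP and TEAD cofactors 6 were measured, and limma called 0 in the 6 comparisons, with 6 of 36 tests at an unadjusted p under 0.05. Yap1 averaged 9.42 with Lipofectamine, 9.50 after heat shock, 9.62 with benzyl alcohol and 9.84 in controls, with adjusted p-values of 0.0922, 0.146 and 0.504 from limma for the 3 treatments in that order. Wwtr1, the gene of TAZ, averaged 8.89, 9.20 and 9.18 with these treatments and 9.13 in controls.

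Other target genes of YAP, known as such mostly from human cells, mostly did not pass against control. Of 22 listed 17 were measured. Lipofectamine changed 1 against control and heat shock and benzyl alcohol 0, beside 4.88%, 5.96% and 1.39% of all probesets. At an unadjusted p under 0.05 by limma there were 3, 3 and 2, and the median was -0.07 with Lipofectamine and 0.07 with benzyl alcohol. Gadd45a differed from control by 1.16 with Lipofectamine, 1.25 after heat shock and -0.80 with benzyl alcohol, and did not pass. Its SE was 1.02 for Lipofectamine and heat shock. Control arrays 1 and 3 differed from the others by 4.59 at Gadd45a, in the direction seen at Ccn1. Birc5, the inhibitor of apoptosis survivin and a gene of dividing cells, had 9.97, 10.12 and 9.85 with Lipofectamine and 10.48, 11.14, 10.38, 11.15 and 11.03 in controls. All Lipofectamine arrays were below all controls, and the difference was -0.86 with SE 0.173 (limma adjusted p = 0.0141). It did not pass with control arrays 1 and 3 as the only controls (-0.45) or without Lipofectamine replicate 1 or 3 (-0.85 to -0.79). With benzyl alcohol 4 of the 17 were higher than with Lipofectamine, where 11.9% of all probesets passed. These were Birc5 by 1.04 and Tgfb2, which encodes a transforming growth factor, by 0.63 (limma adjusted p = 0.00352), both kept with each array left out, and Crim1 by 0.77 and Dock5 by 0.37. The Crim1 call (0.59 to 0.84) was lost without any 1 heat shock array, Lipofectamine replicate 1 or 3 or benzyl alcohol replicate 1 or 3, and the Dock5 call (0.31 to 0.42) without any 1 Lipofectamine or benzyl alcohol array or heat shock replicate 2 or 3. Against heat shock 3 were higher with benzyl alcohol, where 7.22% of all probesets passed, namely F3 by 0.68, Crim1 by 0.87 and Birc5 by 0.65. Each call was lost without any 1 heat shock array, Lipofectamine replicate 1 or benzyl alcohol replicate 1 or 3, and that of Birc5 also without the other Lipofectamine and benzyl alcohol arrays. F3, tissue factor, was also higher with Lipofectamine than after heat shock by 0.78, lost without heat shock replicate 1 or 2 or Lipofectamine replicate 1 or 2 (0.66 to 0.78).

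Within the CCN family, Ccn3 and Ccn5 were the 2 measured of 3 other members. Ccn3, a dim probeset of the kind that can match other transcripts, had 5.60, 5.44 and 5.49 with benzyl alcohol and 4.84, 4.89, 4.59, 4.88 and 5.05 in controls. Every benzyl alcohol array was above every other array at Ccn3. The difference was 0.66 with SE 0.103 (limma adjusted p = 0.00435) from control and 0.72 (limma adjusted p = 0.00157) from Lipofectamine, and both held in all 25 alternatives. Of 10 integrin and related receptors of CCN proteins, limma called only Itgav, higher by 0.43 with benzyl alcohol than with Lipofectamine (limma adjusted p = 0.0489) and lost without any 1 of 11 arrays (0.36 to 0.51), with 12 of 60 tests at an unadjusted p under 0.05 in the 6 comparisons. Among 4 genes of AXL ligands and related receptors and 8 measured of 10 listed WNT feedback targets, where Ccn4 might be placed by its name, limma called 0, with 1 of 24 and 1 of 48 tests at an unadjusted p under 0.05. Axin2, the classic WNT feedback gene, averaged 7.65 with Lipofectamine, 7.42 after heat shock, 7.48 with benzyl alcohol and 7.38 in controls.

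The genes whose signals ran most like those of the 3 CCN genes were taken by Pearson correlation over the 14 arrays, among probesets of 1 gene with a mean signal of at least 6. The arrays share the group differences and the split among the controls, so the coefficients are a description only. Ccn1 was followed most closely by Dusp1 (r = 0.938), a phosphatase of the MAP kinases, Abhd4 (0.937), Praf2 (0.923), the small heat shock protein gene Hspb8 (0.923) and the chemokine gene Cxcl10 (0.919). Cxcl10 showed the same split, with 10.85 and 10.96 in control arrays 1 and 3 and 7.48, 7.73 and 7.92 in control arrays 2, 4 and 5. For Ccn2 the nearest were 2410004B18Rik (0.921), Tinagl1 (0.916), Enc1 (0.910), Purb (0.908) and Pomp (0.907), at lower coefficients, and Tinagl1 had 9.26, 9.19 and 9.17 with benzyl alcohol, above every other array. For Ccn4 they were Creb3l2 (0.973), a membrane-bound transcription factor, Pura (0.964), Hnrnpu (0.961), Smc4 (0.953) and Usp14 (0.950). Smc4, a condensin subunit, had 9.57, 9.61 and 9.58 with Lipofectamine, 9.77, 9.82 and 9.74 after heat shock, 10.17, 10.08 and 10.09 with benzyl alcohol and 10.15, 10.12, 10.13, 10.23 and 10.35 in controls, so that its Lipofectamine and heat shock arrays stood below the rest in the order seen at Ccn4.

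CCN genes and Axl are also expressed by fibroblasts and endothelial cells. Of 7 fibroblast markers and 5 endothelial markers, limma called 0 in the 6 comparisons, with 4 of 42 and 3 of 30 tests at an unadjusted p under 0.05. The log2 of the summed fibroblast signal ran from 8.76 to 9.12 with Lipofectamine, 9.03 to 9.21 after heat shock, 8.88 to 9.09 with benzyl alcohol and 8.92 to 9.15 in controls, and that of the endothelial markers from 8.17 to 8.73, 8.54 to 8.62, 8.42 to 8.67 and 8.28 to 8.66 in the same order. Among 5 macrophage markers Cd68, a lysosomal protein, was higher with benzyl alcohol, at 6.37, 5.78 and 6.47 against 5.20, 5.32, 5.59, 5.16 and 5.26 in controls. The log2 of the summed macrophage signal ran from 8.89 to 9.54 with Lipofectamine, 9.28 to 9.36 after heat shock, 9.13 to 9.39 with benzyl alcohol and 8.91 to 9.21 in controls. Only the heat shock sums all lay above the controls, and 0 of the 5 markers passed for heat shock against control. Melanocyte genes moved as well. Sox10 was lower after heat shock than in controls by a difference of -0.98 (limma adjusted p = 0.0135), lost without any 1 heat shock array (-1.03 to -0.90). Control arrays 1 and 3 differed from the others by -0.76 at Sox10. Tyr was lower after heat shock by a difference of -0.39 (limma adjusted p = 0.0415), lost without any 1 of 7 arrays (-0.41 to -0.34) and with control arrays 1 and 3 alone (-0.23). Mitf was higher with benzyl alcohol than with Lipofectamine by 1.72 and than after heat shock by 1.76, with -1.78 between control arrays 1 and 3 and the others. The Mitf calls were lost without benzyl alcohol replicate 1 or 2, against heat shock also without any 1 heat shock array (1.55 to 1.86), and against Lipofectamine also without Lipofectamine replicate 1 or 3 (1.5 to 1.72). Whether any of these moves has a part in the CCN and YAP target values was not tested.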

How the data were processed

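RNA of 14 B16-F10 cultures had been hybridized to Affymetrix mouse expression arrays, and the deposited log2 values were made by the authors with GCOS 1.2 and robust multi-array averaging (RMA), which corrects background, applies quantile normalization and summarizes the probes of a probeset. The RMA version is not given in the sources used here. RMA gives no detection call and compresses differences of dim probesets. Arrays carry no read depth, so their number limits the precision.

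Symbols came from the platform annotation. The 64 control probesets were left out, and 22626 were tested with limma 3.58.1 in R 4.3.3. Contrasts among Lipofectamine, heat shock and control came from a fit of 11 arrays, and those with benzyl alcohol from a fit of 14. The Benjamini-Hochberg adjustment ran over all of these probesets, with a threshold of 0.05. They measure only the spread between these samples. The fits were tested on simulated data. The members and the gene lists were chosen with earlier results of these data known. Every member probeset is named in the text. From each list, read at the brightest probeset of a gene, up to 4 called genes per contrast were named by smallest p, and for Ccn1, Ccn2 and Ccn4 the 5 genes most alike. Taok1 against control, Lats1 against Lipofectamine, Yap1, Wwtr1, Gadd45a and Axin2 were named after their values were seen. Alternatives were array weights, no moderation of the variance, a replicate block, fits of 2 groups only, all 14 arrays in each fit, a variance trend, other normalizations, an unadjusted p under 0.001, filters on brightness and fold, each array left out, and control arrays 1 and 3 or the other 3 left out. Promoters were searched with Python 3.11.15.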

Additional observations from a re-analysis of the deposited data

Results flagged for a closer look

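Among the control arrays, examined at each of the 18 probesets, 1 value stood far from the others. Lats2 at 1439441_x_at had a log2 signal of 5.92 in control array 4, while the next highest control was 5.64 and the lowest 5.54, so that the gap was 0.742 of the whole range. Chance alone gives such a gap in about 1 in 20 groups.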

How the results depend on the processing

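Counts of member probesets that passed are given in the order Lipofectamine, heat shock and benzyl alcohol against control, where the counts were 4, 5 and 1, and then Lipofectamine against heat shock (2), benzyl alcohol against heat shock (6) and benzyl alcohol against Lipofectamine (3). No member difference that passed with all arrays changed sign in any alternative run. Ccn2 after heat shock, which did not pass with all arrays, passed with opposite signs under the 2 choices of control arrays. Array weights gave 7, 13, 4, 10, 10 and 10, with a warning that they had not converged. Without moderation of the variance 2, 2, 0, 0 and 2 passed in the first 5. These were both Ccn4 probesets with Lipofectamine, Ccn4 at 1448594_at and Axl at 1438621_x_at with heat shock, and Ccn4 at 1448594_at and Axl at 1423586_at for benzyl alcohol against heat shock. Fits of 2 groups only gave 0 for benzyl alcohol against control, 4 for Lipofectamine against heat shock and 5 for benzyl alcohol against Lipofectamine. Lipofectamine against heat shock gave 1 among the brighter probesets and 1 with a fold of at least 1.5. Without control arrays 1 and 3 the counts were 12 for heat shock and 3 for benzyl alcohol against control, 4 for Lipofectamine against heat shock and 6 for benzyl alcohol against Lipofectamine, and without the other 3 controls they were 2 for benzyl alcohol against control and 4 and 6 for these last comparisons. With 1 array left out they ran from 2 to 4, 1 to 6, 0 to 1, 0 to 2, 2 to 7 and 2 to 4.

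Deviations of same-numbered arrays from their group means correlated at -0.56 to 0.442, and only 3 of 18 pairs were over 0.1. The split among the controls enters these deviations, so whether the replicate numbers pair the samples cannot be told from them. With the replicate block 2, 2, 1, 2, 8 and 4 member probesets passed, without the Ccn1 calls of Lipofectamine and heat shock against control. Of all probesets 186, 192, 286, 1001, 1855 and 2595 passed with the block, against 1104, 1349, 314, 1294, 1633 and 2699 without it. Replicates 4 and 5 exist only as controls, so with the block the differences from control rest on control arrays 1, 2 and 3 alone. The lost calls therefore cannot be put down to the pairing itself. Over all probesets array weights gave 8304, 5889, 953, 11009, 4293 and 8829, and leaving out 1 array gave 255 to 2262, 259 to 2658, 131 to 441, 424 to 1767, 227 to 2305 and 1280 to 3187.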
